A study of Mus musculus with 2 samples.

Results

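The transforming growth factor beta superfamily was examined in the neonatal mouse adrenal gland through 39 genes, named by symbol, of 55536 annotated genes in the deposited tables. They comprised 13 ligand chains, 7 type I receptors, 5 type II receptors, 1 co-receptor, 5 secreted antagonists and 8 SMAD genes. RNA of female B6CASTF1/J adrenal gland tissue at 4 days of age had been sequenced in 2 libraries, without any treatment or mutant group. The strain is an F1 hybrid of a C57BL/6J and a CAST/EiJ parent strain. Each library started from 300 ng of total RNA depleted of ribosomal RNA, kept strand information and held an ERCC spike-in. The 2 libraries are called replicates 1 and 2 and form the only group. The labels conflict about the second animal: the library texts number the same female for both, the tissue texts number 2 different females, and both point to a shared donor record. Differences between the libraries are therefore given as replicate 1 over replicate 2, and no comparison of conditions was possible. The text below calls the 2 libraries animals, and n = 2 counts libraries. Whether an SD over them measures spread between mice cannot be told from the labels.

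Ligands of this superfamily are secreted dimers that bring together type II and type I serine/threonine kinase receptors on the cell surface. The type II receptor activates the type I receptor, which phosphorylates receptor-regulated SMAD proteins. These join the common partner Smad4 and enter the nucleus. TGF-beta and activin mainly signal through Smad2 and Smad3, and BMPs through Smad1, Smad5 and Smad9. An inhibin is a dimer of the Inha chain with an activin beta chain, and it antagonises activin. In the mouse adrenal cortex inhibin alpha is known as a product of steroidogenic cells, and its loss leads to cortical tumours after gonadectomy.

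Expected counts summed to 31838341 in replicate 1 and 32931868 in replicate 2, with 0.901% and 0.923% outside annotated genes. The label of the tissue was checked against markers. The 7 steroidogenic cortex genes, led by Hsd3b1 and Cyp21a1, had a summed level of 6067.96 TPM in replicate 1 and 6684.4 TPM in replicate 2. TPM, the deposited unit of level, scales counts to transcript length and library size. The 5 chromaffin genes, led by Chga and Chgb, had sums of 1822.78 and 2135.02 TPM. The libraries stood apart in markers of neighbouring tissues. The 5 pancreas genes, led by Ctrb1 and Cela2a, reached a summed 3377.85 TPM in replicate 1, against 0.49 TPM in replicate 2, where Cela2a, Ins2 and Gcg were at 0. All 9 kidney genes, led by Slc34a1 and Lrp2, were higher in replicate 1, at a summed 100.21 against 10.6 TPM. The 4 liver genes, led by Alb and Ttr, had 84.25 TPM in all in replicate 1, against 342.19 TPM in replicate 2. The 4 skeletal muscle genes, led by Acta1 and Tnnt3, had 208.02 and 1357.65 TPM in all. Fat markers were present in both libraries: the 4 adipose genes, led by Plin1 and Ucp1, had 336.57 and 355.69 TPM in all. By counts scaled to library size, Adipoq, Plin1 and Cidea were higher in replicate 2 and Ucp1 in replicate 1, each beyond sampling. All 6 macrophage genes, led by Lyz2, were higher in replicate 2, at a summed 74.97 against 105.62 TPM. The part of these other tissues in the differences between the animals given below was not tested.

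**Figure D1:**
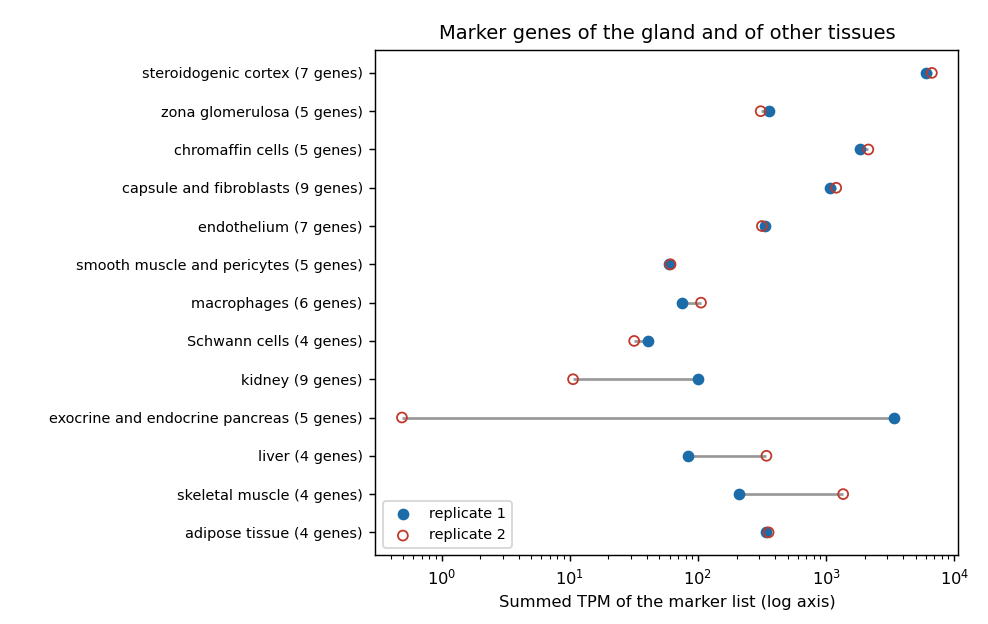
Summed TPM of each marker list except ovary, which is not drawn (log axis), in replicate 1 (filled points) and replicate 2 (open points). The 2 animals lie close together for the cortex, chromaffin cells and endothelium, and far apart for pancreas (3377.85 and 0.49 TPM), kidney (100.21 and 10.6 TPM) and skeletal muscle (208.02 and 1357.65 TPM).

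The superfamily was broadly present. Of the 39 genes, 36 reached 1 TPM in both animals, where 59.5% of all protein-coding genes and 26.4% of all annotated genes did. Since TPM is per length, levels of different genes can be set side by side within an animal. The 39 genes together made up 485.15 TPM in replicate 1 and 480.45 TPM in replicate 2 (483 ± 3.32, SD, n = 2). The 36 detected genes had a median level of 7.93 TPM, against 12.4 TPM for all detected protein-coding genes. The SMAD genes held the largest summed level of the 6 roles, with 156.52 and 148.33 TPM, and the secreted antagonists the smallest, with 16.55 and 16.3 TPM. Amh, Nog and Grem1 stayed under 1 TPM in both animals. In RNA of gland tissue, fewer cells of a type and less RNA per cell cannot be told apart.

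**Figure D2:**
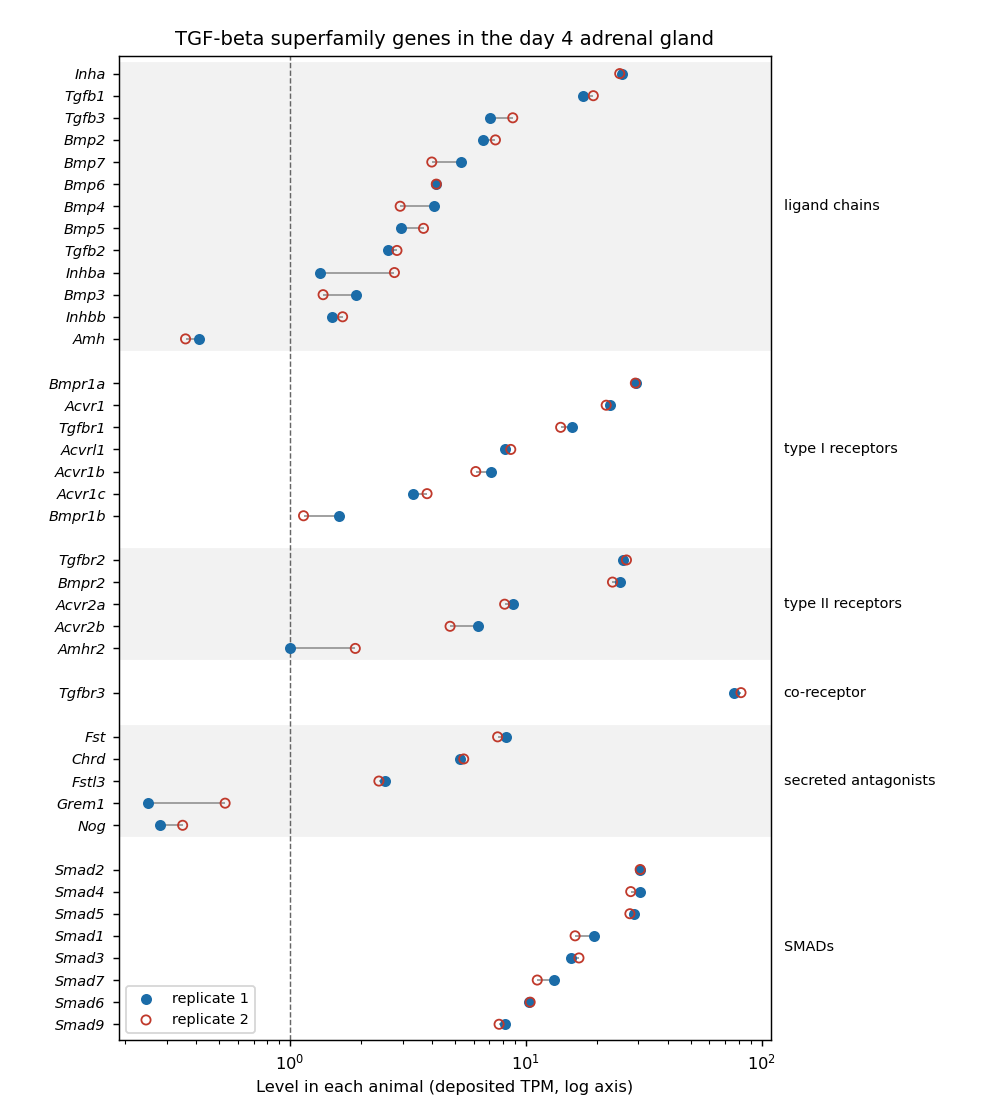
Level of each of the 39 genes (deposited TPM, log axis) in replicate 1 (filled points) and replicate 2 (open points), grouped by role and ordered by mean; the dashed line marks 1 TPM. Tgfbr3 stands highest, at 76.46 and 81.8 TPM, and Amh, Nog and Grem1 lie below the line in both animals.

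Several receptors and other members were present as splice forms that differ by a coding segment, and these segments are shown because they are what separates the forms quantified further on. The sequences were read from the GENCODE M21 transcripts (mm10) and are given 5′ to 3′ on the coding strand. Capitals mark the alternative segment and lower case the flanking coding bases, 15 on each side where the coding sequence goes on.
Tgfbr2, cassette exon of 75 bases at chr9:116158271-116158345, minus strand: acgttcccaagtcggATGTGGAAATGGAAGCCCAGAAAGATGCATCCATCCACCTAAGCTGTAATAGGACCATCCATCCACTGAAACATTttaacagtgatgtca
Tgfb2, cassette exon of 84 bases at chr1:186690721-186690804, minus strand: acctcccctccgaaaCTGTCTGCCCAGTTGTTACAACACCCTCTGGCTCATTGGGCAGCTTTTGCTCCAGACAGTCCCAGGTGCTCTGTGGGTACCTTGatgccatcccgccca
Acvr2b, segment of 72 bases kept inside an exon at chr9:119428353-119428424, plus strand: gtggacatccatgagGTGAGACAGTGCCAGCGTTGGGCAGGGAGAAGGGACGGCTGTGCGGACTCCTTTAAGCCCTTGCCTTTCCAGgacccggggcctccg
Acvr2b, segment of 24 bases at an exon start at chr9:119428201-119428224, plus strand: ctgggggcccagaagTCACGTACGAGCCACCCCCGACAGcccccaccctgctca
Acvr1c, coding exon 3 of 240 bases at chr2:58295926-58296165, minus strand: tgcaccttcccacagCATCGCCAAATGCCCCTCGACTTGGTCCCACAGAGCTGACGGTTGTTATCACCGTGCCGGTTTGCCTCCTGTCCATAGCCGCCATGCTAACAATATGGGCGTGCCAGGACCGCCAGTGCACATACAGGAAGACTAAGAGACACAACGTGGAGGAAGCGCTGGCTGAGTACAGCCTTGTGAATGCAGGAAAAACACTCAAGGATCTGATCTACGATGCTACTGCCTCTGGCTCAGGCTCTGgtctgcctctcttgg
Fst, 80 coding bases of the last exon at chr13:114453426-114453505, minus strand: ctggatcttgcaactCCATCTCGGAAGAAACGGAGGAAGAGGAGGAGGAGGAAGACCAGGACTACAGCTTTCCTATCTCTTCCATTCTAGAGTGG

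Among the activin and inhibin chains, the alpha chain was far above both beta chains. Inha, the chain found in inhibins but not in activins (mm10 chr1:75507077-75510366, plus strand), had 25.49 TPM in replicate 1 and 25.02 TPM in replicate 2, the highest level of the 13 ligand chains. Inhba, the activin A beta chain (chr13:16011851-16031621, plus strand), had 1.34 and 2.77 TPM. Inhbb, the activin B beta chain (chr1:119415465-119422248, minus strand), had 1.51 and 1.67 TPM. The counting interval of the ratio between the animals included 0 for Inha and Inhbb, whereas Inhba was higher in replicate 2. Inha was 8.94 times the summed beta chains in replicate 1 and 5.64 times in replicate 2 by TPM. In the second deposited quantification, described with the processing, the same quotients were 9.73 and 6.44. Within an animal, the log2 ratio of Inha over Inhba was 4.24 in replicate 1 and 3.17 in replicate 2, and that of Inha over Inhbb was 4.07 and 3.90. The order of the 2 beta chains was not shared: the log2 ratio of Inhba over Inhbb was -0.17 in replicate 1 and 0.73 in replicate 2.

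Tgfb1 was the leading TGF-beta ligand in both animals. Tgfb1, an anti-inflammatory and fibrogenic cytokine, had 17.45 TPM in replicate 1 and 19.33 TPM in replicate 2. Tgfb3, known for its part in palate fusion, had 7.06 and 8.8 TPM. Tgfb2, which is required for heart and craniofacial development, had 2.59 and 2.84 TPM. The order Tgfb1, Tgfb3, Tgfb2 held in each animal with no overlap of their values. The mean log2 ratio of Tgfb1 over Tgfb2 was 2.76 ± 0.0107 (SD, n = 2), and that of Tgfb1 over Tgfb3 was 1.22 ± 0.12.

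The 6 BMP genes all lay below Tgfb1 and Inha. Bmp2, an osteogenic and cardiogenic BMP, had 6.6 TPM in replicate 1 and 7.43 TPM in replicate 2. Bmp7, a kidney and eye morphogen, had 5.33 and 3.99 TPM. Bmp6, the main BMP inducer of hepcidin in the liver, had 4.14 and 4.17 TPM. Bmp6 differed least between the animals of these 6 by TPM, and Bmp7 stood above it in replicate 1 and below it in replicate 2. Bmp4, required for mesoderm formation, had 4.06 and 2.93 TPM. Bmp5, known from the short ear mutation, had 2.96 and 3.68 TPM, and Bmp3, an atypical member that opposes osteogenic BMPs, had 1.91 and 1.38 TPM. The order of Bmp4 and Bmp5 also differed between the animals. In the second quantification neither order did: Bmp5, with 5.76 and 6.61 TPM, was above Bmp4, with 5.23 and 3.53 TPM, and Bmp6 was above Bmp7 in both animals. Part of the Bmp4 level rested on a retained-intron model of 258 bases, with 1.43 TPM in replicate 1 from 7.02 expected counts and 1.1 TPM in replicate 2 from 5.54 expected counts. The second quantification gave that model 0 in both animals. Amh, the Müllerian duct regressor made by the gonads, had only 0.41 and 0.36 TPM from 20 and 18 counts. The 5 ovary markers had 0.33 TPM in all in replicate 1, against 0.23 TPM in replicate 2, with Figla at 0 in both.

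Bmpr1a and Acvr1 led the type I receptors. Bmpr1a, the main BMP type I receptor (chr14:34410734-34503341, minus strand), had 29.26 TPM in replicate 1 and 29.15 TPM in replicate 2. Acvr1, a BMP and activin type I receptor mutated in fibrodysplasia ossificans progressiva in humans, had 22.75 and 21.92 TPM. Tgfbr1, the TGF-beta type I receptor, had 15.7 and 14.05 TPM. These 3 genes kept their order in both animals without overlap. Acvrl1, an endothelial receptor for BMPs, had 8.18 and 8.63 TPM, and Acvr1b, the main activin type I receptor, had 7.12 and 6.13 TPM. Acvr1c, a receptor for nodal and related activins, had 3.31 and 3.81 TPM. Bmpr1b, a BMP receptor known from limb cartilage and the ovary, had 1.61 and 1.14 TPM, and was the lowest of the 7. The mean log2 ratio of Bmpr1a over Bmpr1b was 4.42 ± 0.346 (SD, n = 2), the largest of the 24 gene pairs set against each other. The 7 endothelial markers, led by Egfl7 and Plvap, had 331.42 TPM in all in replicate 1, against 315.39 TPM in replicate 2. The sum hides a mixed direction. By counts scaled to library size, Egfl7 and Plvap were higher in replicate 1 and the other 5 genes in replicate 2.

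Among the type II receptors, Tgfbr2, which binds TGF-beta, had 25.74 TPM in replicate 1 and 26.72 TPM in replicate 2. Bmpr2, the BMP type II receptor mutated in human pulmonary arterial hypertension, had 25.0 and 23.31 TPM. The order of Tgfbr2 over Bmpr2 held in both animals. Acvr2a, an activin and BMP type II receptor, had 8.82 and 8.13 TPM, and Acvr2b, its close relative, had 6.28 and 4.77 TPM. Amhr2, the receptor for Amh, had 1.0 and 1.89 TPM from 52 and 71 counts, so it only just met the detection level in replicate 1. Part of its replicate 2 level rested on models of 364 and 209 bases, with 0.39 and 0.37 TPM from 3.26 and 1.28 expected counts. The second quantification gave both models 0, and Amhr2 1.75 TPM in replicate 1 and 2.03 TPM in replicate 2. Between subunits, Bmpr2 stood above Acvr2a by a mean log2 ratio of 1.51 ± 0.0116 and Tgfbr1 over Tgfbr2 had a mean log2 ratio of -0.82 ± 0.151 (SD, n = 2 each).

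The co-receptor exceeded every other gene of the set. Tgfbr3, also called betaglycan, presents TGF-beta to Tgfbr2 and binds inhibin, which raises its hold on activin type II receptors. It had 76.46 TPM in replicate 1 and 81.8 TPM in replicate 2 (79.1 ± 3.78, SD, n = 2), rank 756 of the protein-coding genes by mean TPM. The mean log2 ratio of Tgfbr3 over Tgfbr2 was 1.59 ± 0.0308. Tgfbr3 (chr5:107106570-107289629, minus strand) shares its strand with 3 overlapping gene models, and it was the only member without whole expected counts (tolerance 0.005 counts), so part of its reads had been divided among models. The main coding model, of 6087 bases, held 62.45 TPM in replicate 1 and 60.73 TPM in replicate 2.

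Secreted antagonists were low apart from follistatin and chordin. Fst, which binds and neutralises activin, had 8.22 TPM in replicate 1 and 7.59 TPM in replicate 2. Chrd, a BMP-binding protein of the early embryo, had 5.27 and 5.45 TPM. Fstl3, a follistatin relative without the heparin-binding sequence, had 2.53 and 2.38 TPM. These 3 kept their order in both animals. Nog, a BMP trap needed in joint formation, had 0.28 and 0.35 TPM from 14 and 18 counts, and Grem1, a BMP antagonist of limb and kidney development, had 0.25 and 0.53 TPM from 31 and 68 counts. Fst exceeded Fstl3 by a mean log2 ratio of 1.68 ± 0.0191, and Chrd exceeded Nog by 4.05 ± 0.186 (SD, n = 2 each).

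All 8 SMAD genes were detected. Of the receptor-regulated SMADs for TGF-beta and activin, Smad2 had 30.55 TPM in each animal, whereas Smad3 had 15.54 and 16.8 TPM. Smad4, the common partner, had 30.63 and 27.86 TPM. Of the BMP-regulated SMADs, Smad5 had 28.7 and 27.63 TPM, Smad1 had 19.43 and 16.18 TPM, and Smad9 had 8.17 and 7.7 TPM. The levels of Smad4 overlapped with those of Smad2 and of Smad5, and Smad1 overlapped with Smad3. In the second quantification only the overlap of Smad4 with Smad2 remained. There Smad4, with 69.0 and 56.0 TPM, was above Smad5, with 47.0 and 43.0 TPM. Smad1, with 40.3 and 33.5 TPM, was above Smad3, with 31.4 TPM in each animal. The inhibitory SMADs were lower than the leading receptor-regulated ones: Smad7, which blocks both branches, had 13.21 and 11.18 TPM, and Smad6, which mainly blocks BMP signalling, had 10.29 and 10.43 TPM. Smad2 exceeded Smad3 by a mean log2 ratio of 0.92 ± 0.0795, and Smad5 exceeded Smad9 by 1.83 ± 0.0216 (SD, n = 2 each). Smad5 lies on the same strand as 3 overlapping gene models, but its expected counts were whole.

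**Figure D3:**
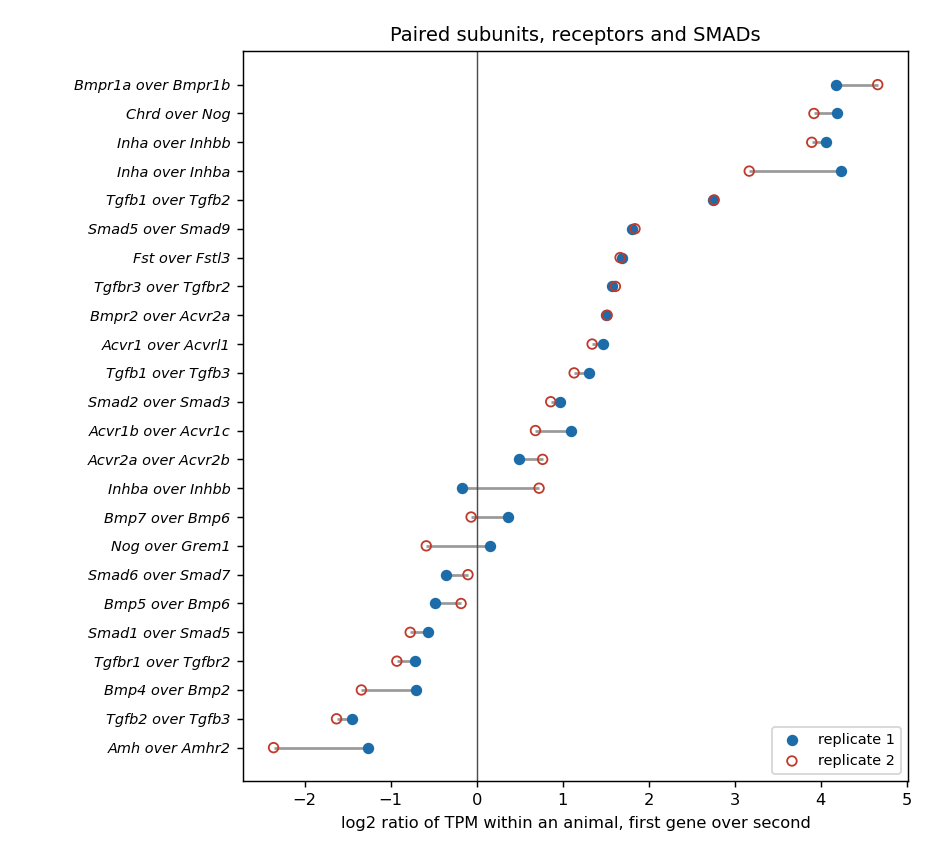
Log2 ratio of TPM within an animal (first gene over second, pseudocount 0.01 TPM) for 24 gene pairs, in replicate 1 (filled points) and replicate 2 (open points), ordered by mean. In 21 pairs both animals lie on the same side of 0, and the pairs that straddle it are Inhba over Inhbb, Bmp7 over Bmp6 and Nog over Grem1.

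Of the 24 pairs of related genes, 21 had the same direction in both animals with a mean larger than the SD, and 14 of the 24 had a mean ratio over 2-fold. With 2 animals an exact sign permutation test cannot give a two-sided p below 0.5, so the pair ratios are descriptions of these glands. The other 3 pairs had small mean log2 ratios of 0.28 for Inhba over Inhbb, 0.15 for Bmp7 over Bmp6 and -0.21 for Nog over Grem1.

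The differences between the animals were mostly small. Of the 39 genes, 35 had a mean of at least 100 expected counts. None of the 35 differed 2-fold between the libraries on TMM-scaled counts, where 3.21% of all 13734 genes at that count did. At 1.5-fold there were 2, Inhba and Bmp4, where the share of all genes was 5.53%. The median log2 ratio of replicate 1 over replicate 2 was 0.02 over the detected members and -0.02 over all genes at the count minimum. The median size of the log2 ratio was 0.11 in both sets. By an exact conditional binomial test with Benjamini-Hochberg adjustment over the 13734 genes, 15 of the 35 members differed beyond sampling noise, where 33.0% of all genes did. Of these, 8 were higher in replicate 1 (14.3% of all genes) and 7 were higher in replicate 2 (18.7% of all genes). The test compares these 2 libraries with counting error only, and gives no estimate of the spread between animals.

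Inhba differed most among the members at the count minimum. It had 165 counts in replicate 1, against 305 counts in replicate 2, and was 1.84-fold higher in replicate 2, with a log2 ratio of -0.88 (95% interval -1.16 to -0.60) and an adjusted p of 1.68e-09 in the exact binomial test. Both coding models were higher in replicate 2, the one of 6390 bases with 0.71 and 1.15 TPM and the one of 1529 bases with 0.63 and 1.62 TPM. By the ratio of deposited TPM rather than scaled counts, Inhba passed the 2-fold size. The liver, skeletal muscle and macrophage markers were higher in replicate 2 as well, and so were all 7 steroidogenic cortex and all 5 chromaffin genes, each beyond sampling.

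The next largest differences among the genes tested were those of Bmp4, Bmpr1b and Acvr1c. Bmp4 had 138 counts in replicate 1 and 85 in replicate 2, which gave a log2 ratio of 0.70 (95% interval 0.30 to 1.11, adjusted p = 0.00222, exact binomial test). Bmpr1b had 226 and 158 counts, a log2 ratio of 0.52 (95% interval 0.22 to 0.82, adjusted p = 0.00274, exact binomial test). Both were higher in replicate 1. Acvr1c had 540 and 760 counts, a log2 ratio of -0.49 (95% interval -0.65 to -0.33, adjusted p = 1.84e-08, exact binomial test), and was 1.40-fold higher in replicate 2. Its TPM differed less, at 3.31 in replicate 1 and 3.81 in replicate 2, since the longest coding model, of 9162 bases, had 495.96 expected counts in replicate 1 and 718.87 in replicate 2. The kidney and pancreas markers, like Bmp4 and Bmpr1b but unlike Acvr1c, were higher in replicate 1. The liver, skeletal muscle and macrophage markers, and 3 of the 4 adipose genes, were higher in replicate 2, like Acvr1c.

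The other members beyond sampling differed by less than 1.3-fold. Tgfb3, with a log2 ratio of -0.36, Bmp5, with -0.28, and Bmp2, with -0.22, were higher in replicate 2. Bmp3, with a log2 ratio of 0.36, Bmp7, with 0.34, Acvr2b, with 0.31, Acvr1b, with 0.17, and Tgfbr1, with 0.16, were higher in replicate 1. Tgfbr2, with -0.11, Bmpr2, with 0.07, and Tgfbr3, with -0.05, passed the exact binomial test at high counts, with adjusted p of 0.00502, 0.00803 and 0.0154. Under total-count and spike-in scaling Bmp2, Bmp5, Tgfbr2 and Tgfbr3 were no longer beyond sampling, and the spike-in log2 ratios of Tgfbr3 and Tgfbr2 were 0.03 and -0.03. In the second quantification Acvr2b and Bmpr2 were no longer beyond sampling, with adjusted p in the exact test of 0.0561 and 0.280, and without a count filter Acvr1b and Bmp5 were not. Grem1, under the count minimum, had the largest log2 ratio of all 39 genes, -1.12 (95% interval -1.79 to -0.50).

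None of the 8 SMAD genes differed beyond sampling in the exact binomial test on TMM-scaled counts. At an unadjusted p under 0.05 only Smad1 did, with an exact p of 0.0173. Their log2 ratios ran from -0.06 for Smad6 to 0.12 for Smad1, and 7 of 8 were above 0. This count depended on the scaling. With total counts 7 were above 0 and 4 were beyond sampling, with ERCC spike-ins 8 and 6, with DESeq2 size factors 7 and 0, and in the second quantification 5 and 0. Of all genes tested, 33.0% were beyond sampling on TMM-scaled counts, 33.2% with total counts and 37.1% with spike-ins. With DESeq2 size factors the share was 33.2%, and in the second quantification 37.4%. Smad3 was slightly higher in replicate 1 by scaled counts and higher in replicate 2 by TPM.

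**Figure D4:**
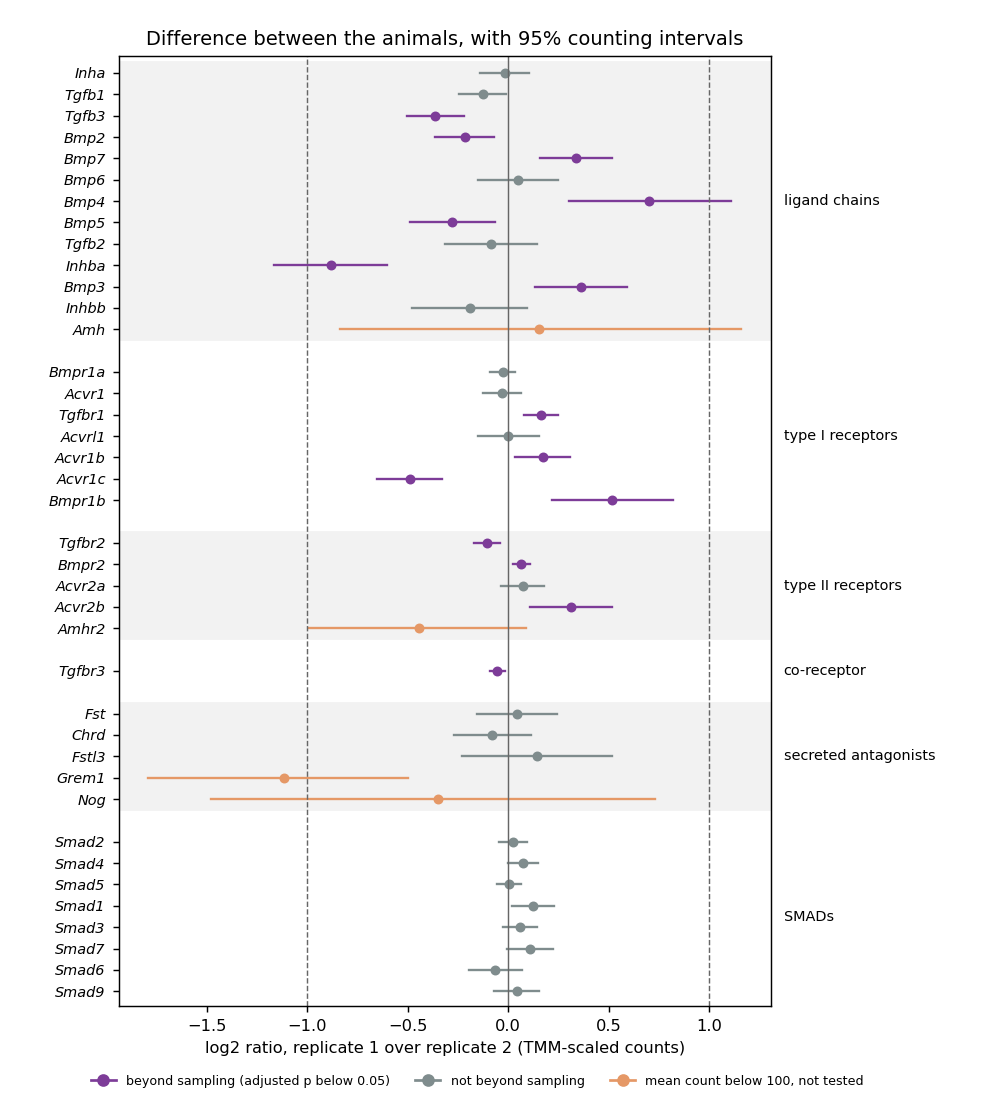
Log2 ratio of replicate 1 over replicate 2 on TMM-scaled counts for each of the 39 genes, with exact 95% counting intervals; dashed lines mark 2-fold. Purple genes were beyond sampling, grey genes were not, and orange genes had a mean count below 100 and were not tested; Inhba (-0.88) and Bmp4 (0.70) lie farthest from 0 among those tested.

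For most of the segments printed above the share of the splice form was close in both animals. The shares are of the summed TPM of named coding models with and without a segment. These models also differ elsewhere, for example in the length of their 3′ ends, so a share reflects the whole model. The 75-base exon of Tgfbr2, which in humans defines the type II-B form of the receptor, was in 32.4% of the TPM in replicate 1 and 32.9% in replicate 2 (32.7 ± 0.358%, SD, n = 2). The second quantification gave 27.4% and 28.1%. The form without the exon was thus the larger in both animals and both quantifications.

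Acvr2b is known for forms with and without 2 short inserts, of which the one in the extracellular part affects the affinity for activin. The 24-base segment was in 95.0% of the Acvr2b TPM in replicate 1 and 92.2% in replicate 2. The 72-base segment was in 32.9% and 33.6%. The second quantification gave 93.8% and 92.9% for the short segment, and 35.6% and 36.6% for the longer one. The most abundant model, of 3175 bases, carried the short segment without the longer one, with 3.48 TPM in replicate 1 and 2.73 TPM in replicate 2.

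Acvr1c coding exon 3, which encodes the membrane-spanning part of the receptor, was in 66.7% of the TPM in replicate 1 and 75.2% in replicate 2 (70.9 ± 6.05%, SD, n = 2). The second quantification gave 66.0% and 74.6%. The form without the exon had 0.89 and 0.82 TPM from 38.25 and 36.46 expected counts, so the animals differed mainly in the full-length model, with 1.78 and 2.49 TPM. Smad2 exon 3 of 90 bases, which lies in the DNA-binding domain and keeps the full-length protein from binding DNA directly, was in 77.0% of the TPM in replicate 1 and 77.4% in replicate 2. The second quantification gave 77.3% and 78.7%, and without a shortened model of 972 bases the mean share was 73.1%.

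The shares of Fst and Tgfb2 depended on the quantification. The 80 coding bases of the last Fst exon add an acidic tail that lowers binding of follistatin to cell surfaces. They were in 40.1% of the TPM in replicate 1 and 43.1% in replicate 2, and in the second quantification in 53.6% and 56.2%. Which form was larger therefore differed between the quantifications and not between the animals. The 84-base Tgfb2 exon, which lengthens the propeptide, was in 16.9% of the TPM in replicate 1 and 20.4% in replicate 2, against 41.5% and 38.7% in the second quantification. The form of Tgfb2 without the exon was the larger in every case.

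**Figure D5:**
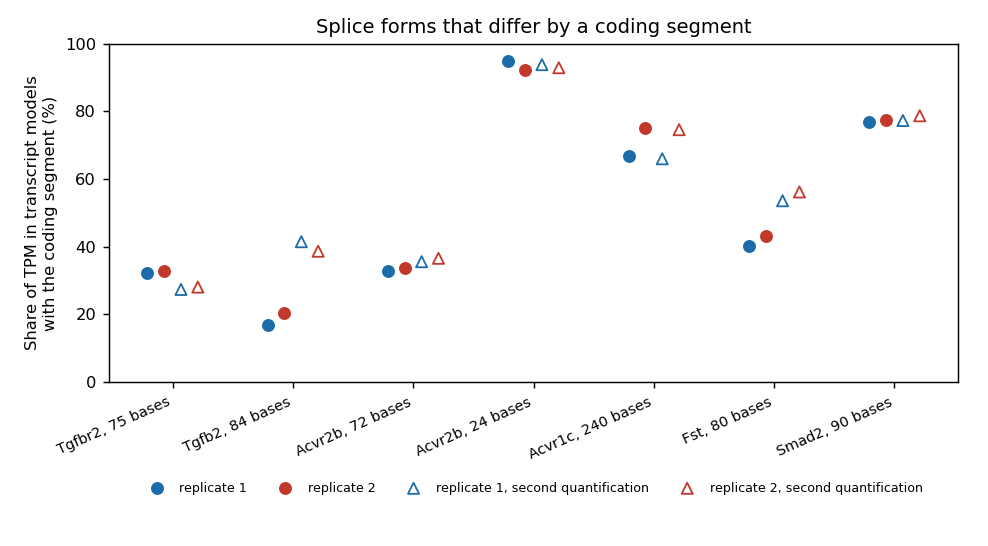
Share of TPM (%) in transcript models that carry each coding segment, for replicate 1 (blue) and replicate 2 (red), in the gene-table quantification (circles) and the second quantification (open triangles). The animals lie within a few percent of each other except for the 240-base Acvr1c exon (66.7% and 75.2%), and the quantifications lie apart for Tgfb2 and Fst.

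The leading transcript was compared between the animals for the better-expressed genes. Of 23 members with at least 5 TPM in both animals, 23 had the same leading transcript in both, and in 10 it held at least 90% of the gene's TPM in both. In 20 of the 23 the second quantification named the same transcript in both animals. Tgfb3, Inha, Bmp2, Acvr1b and Smad9 count in all of these, but have a single annotated model, so their agreement was fixed in advance. For Acvr1 the lead was narrow, with 8.89 against 8.75 TPM in replicate 1 and 7.66 against 7.47 TPM in replicate 2 for the next model. The exceptions were Acvrl1, Fst and Smad2. For Acvrl1 the leading model was that of 3506 bases, with 73.3% in replicate 1 and 45.8% in replicate 2, but that of 3640 bases, with 57.5% and 60.4%, in the second quantification. Both models carry the same coding length of 1506 bases.

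Other genes of the pathway were taken from lists of 71 symbols, of which 47 were detected, where 59.5% of all protein-coding genes were, and 46 met the count minimum. Beyond sampling were 24, where 33.0% of all genes at the count minimum were. Of the 24, 8 were higher in replicate 1 (14.3% of all genes) and 16 were higher in replicate 2 (18.7% of all genes). Of 20 further ligands only Gdf10, with 3.88 and 4.55 TPM, and Gdf11, with 3.16 and 2.49 TPM, were detected, and the next by mean was Mstn, with 0.25 and 1.01 TPM. Of 28 extracellular modulators 25 were detected. The highest were Dcn, a proteoglycan that binds TGF-beta, with 90.73 and 117.44 TPM, Ltbp3, a latent TGF-beta binding protein, with 99.07 and 103.38 TPM, and Fstl1, with 108.6 and 91.15 TPM. Sostdc1, a BMP and Wnt antagonist, was the only one of the 46 past 2-fold, where 3.21% of all genes were, with 10.27 TPM in replicate 1 and 3.72 TPM in replicate 2 (log2 ratio 1.42, adjusted p = 1.50e-34, exact binomial test). It was higher in replicate 1 together with the kidney and pancreas markers.

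All 12 intracellular regulators were detected, led by Fkbp1a, which holds type I receptors inactive, with 94.58 TPM in replicate 1 and 112.53 TPM in replicate 2. Strap followed with 44.83 and 40.7 TPM, and the SMAD co-repressor Ski with 38.02 and 36.98 TPM. Of 11 common target genes 8 were detected, with a summed level of 273.86 and 311.76 TPM. Id2, Id1 and Id3, inhibitors of helix-loop-helix factors that BMPs induce, led the list with 165.29 and 185.24 TPM, 36.9 and 53.68 TPM, and 35.54 and 39.2 TPM. Of the 7 target genes at the count minimum, 3 were beyond sampling and higher in replicate 2 (Id1, Id2 and Id3) and 1, Id4, was higher in replicate 1 (log2 ratio 0.55), where 18.7% and 14.3% of all genes were. The 9 capsule and fibroblast markers, led by Col3a1 and Col1a1, had 1063.8 TPM in all in replicate 1, against 1198.78 TPM in replicate 2. Their directions were mixed. By scaled counts 4 genes, both leading ones included, were higher in replicate 2. The other 5 were higher in replicate 1, among them Wt1, with 11.99 and 6.17 TPM.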

How the data were processed

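The libraries, kits, tissue and age are as per the labels, and the 2 samples form 1 group. The deposited gene and transcript tables, made for assembly mm10 and annotation M21 per the authors' notes, gave expected counts, TPM, posterior mean TPM and, as a percent, each transcript's share of its gene. A deposited transcript table from read files gave estimated counts and TPM. Summed to genes, it is the second quantification of the text. For the aligner and quantifiers, names and versions were not given in the sources used here; columns are named as RSEM and kallisto name them.

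Levels are deposited TPM of the gene tables. For differences between the animals, expected counts were rounded and scaled by TMM (edgeR 4.0.16), with factors of 1.01558 and 0.984661 and a prior of 0.5. The exact two-sided conditional binomial test and Clopper-Pearson intervals (95%) used scipy 1.17.1. Fitting each library as its own group leaves no residual degrees of freedom, so edgeR's quasi-likelihood test could not be used between the animals. Before use the test was run on counts simulated with counting noise only. That is the noise the test assumes, so the run checks the code and not its fit to real libraries. Alternatives were DESeq2 1.42.0 size factors, total counts, ERCC spike-ins, other minimums and pseudocounts, posterior mean TPM and the second quantification. Rows without a gene, spike-ins included, stayed out of scaling and tests.

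The estimated counts of the second quantification summed to 32074016 and 32964074. The limit that a count of 0 allows, 3 counts, was 9.42e-06% of the total for replicate 1 and 9.11e-06% for replicate 2. Without molecular identifiers, such limits and intervals cover counting error alone.

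Members, lists, pairs and tests were chosen with earlier results of these data known, and the splice segments after the transcript values were seen. All 39 members are named, and of each pathway list the 3 highest and every gene past 2-fold at the count minimum. Of marker lists the highest are named, except for ovary, zona glomerulosa, smooth muscle and Schwann cells, which are given as sums. Other genes were named after their values were seen. Ctgf was matched under its current symbol. Further marker lists gave 359.72 TPM in replicate 1 and 308.64 TPM in replicate 2 for zona glomerulosa. Smooth muscle had 59.18 and 61.11 TPM, and Schwann cells had 40.41 and 31.79 TPM. Of the members, 17 overlap a gene on the other strand; the kit keeps strand per the labels. Protein sequences were not used here.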

Additional observations from a re-analysis of the deposited data

How the results depend on the processing

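No paired analysis was possible because the study has 1 group. The number of detected members was 36 under 0.5 TPM, posterior mean TPM, the second quantification and either animal alone (36 to 36). It was 31 at 2 TPM. Of all annotated genes, 29.9% were detected at 0.5 TPM, 31.9% with posterior mean TPM, 29.7% in the second quantification and 23.4% at 2 TPM. Without replicate 1 the share was 27.3%, and without replicate 2 it was 28.1%. The number past 2-fold, 0 with TMM, DESeq2, total-count or spike-in scaling, a prior of 5 and the second quantification, was 1 with a mean count minimum of 20 and 1 with no filter (Grem1), 1 by the ratio of deposited TPM (Inhba) and 2 at 1.5-fold (Inhba and Bmp4). The number beyond sampling, 15, was 15 with DESeq2, 15 with total counts, 18 with spike-ins, 16 at a minimum of 20, 14 with no filter, 14 in the second quantification and 2 when 1.5-fold was also asked. Among all genes tested, the share beyond sampling was 33.2% with DESeq2, 33.2% with total counts and 37.1% with spike-ins. It was 29.6% at a minimum of 20, 17.2% with no filter and 37.4% in the second quantification. The 1.5-fold settings were chosen after seeing the data. Small log2 ratios changed sign: Inha to 0.027 with total counts and 0.0625 with spike-ins, Acvr1 to 0.0125 and 0.048, and Bmpr1a to 0.018 and 0.053; with spike-ins alone Tgfbr3 to 0.027, Chrd to 0.0005 and Smad6 to 0.016; with DESeq2 Acvrl1 to -0.0020; in the second quantification Fst to -0.0045, Smad2 to -0.019 and Smad5 to -0.010. DESeq2 factors called the same 15 genes. Total counts kept 11 of them, without Bmp2, Bmp5, Tgfbr2 and Tgfbr3, and added Smad1, Smad3, Smad4 and Smad7. Spike-ins kept 11, without the same 4 genes, and added 7, namely Acvr2a and all SMADs but Smad6 and Smad9. The second quantification kept 13, without Acvr2b and Bmpr2, and added Tgfb1. A minimum of 20 kept all 15 and added Grem1, and no filter kept 13, without Acvr1b and Bmp5, and added Grem1; the cause of these changes was not tested. In the second quantification 38 of 39 levels moved by more than the SD, with median log2 ratios of the deposited gene-table level over it of -0.89 in replicate 1 and -0.83 in replicate 2, close to all detected protein-coding genes (-0.87 and -0.85). Of the 24 pair ratios, 13 moved by more than the SD in the second quantification, 11 at a pseudocount of 1 TPM, 7 with posterior mean TPM and 3 at a pseudocount of 0.1 TPM; 21 pairs kept 1 direction in both animals under the pseudocounts and posterior mean TPM, and 22 had it in the second quantification. A leading transcript shared by both animals cannot be counted with 1 animal, so that alternative was not run.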

Other observations

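For some members a sizeable part of the TPM lay in transcript models without a coding label. This share was 44.0% in replicate 1 and 39.5% in replicate 2 for Chrd, 23.7% and 23.8% for Smad5, 23.4% and 18.2% for Fst, 16.1% and 23.5% for Tgfbr3, and 17.5% and 8.97% for Smad1. For Smad5 it came mostly from the retained-intron model of 1398 bases, with 6.2 TPM in replicate 1 and 6.58 TPM in replicate 2. For Tgfbr3 the retained-intron model of 1368 bases had 12.28 and 16.62 TPM. In the second quantification the shares were 39.1% and 35.3% for Chrd, 14.4% and 10.6% for Smad5, 3.50% and 2.91% for Fst, 24.8% and 29.2% for Tgfbr3, and 31.1% and 23.3% for Smad1. For Acvr2a the share was 0 in both animals, but 18.4% in replicate 1 and 25.3% in replicate 2 in the second quantification. Bmpr2, by contrast, had 4.36% and 5.19%. Inha, Bmp2, Bmpr1a, Tgfbr2 and Smad9 have only coding models in the annotation, so for them this share could not differ from 0.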
